A study of Mus musculus with 6 samples.

Results

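The proteasome genes were described in CD45+ cells sorted from the spinal cords of mice with experimental autoimmune encephalomyelitis (EAE), an autoimmune inflammation of the central nervous system. They were taken by name, as all genes of the single-cell table whose symbol starts with Psma, Psmb, Psmc, Psmd, Psme or Psmf and a digit, pseudogenes left out, which gave 46 of 19449 genes. EAE was set off by transfer of CD4+ T cells that had been primed with the myelin peptide MOG35-55 in congenic CD45.1 donors and polarized with IL-23. The recipients were C57BL/6 mice, young at 8 to 12 weeks or middle-aged at 40 to 44 weeks, and cells were taken on day 6 or day 10 after transfer. Each of 4 single-cell libraries (Young day 6, Young day 10, Middle-aged day 6 and Middle-aged day 10) came from 4 pooled spinal cords, so that each age and day had 1 library and no replicate. Another 2 libraries held bulk RNA of microglia from naive mice, 1 young and 1 middle-aged, that had received no T cells. The single-cell libraries held 57337626 to 69859331 UMIs (unique molecular identifiers, tags that mark each captured transcript once) in 8315 to 10026 cells, with medians of 4704.5 to 6196 per cell, and 308 of 38057 cells had a barcode that also occurred in another library.

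The proteasome is the protease that cuts ubiquitin-tagged proteins into peptides. Its 20S core is a barrel of alpha rings, which gate the channel, around beta rings, which hold the active sites β1, β2 and β5. In most cells these sites are Psmb6, Psmb7 and Psmb5, the constitutive catalytic subunits. Leukocytes, and other cells under interferon-gamma, build in Psmb9, Psmb10 and Psmb8 in their place, and the resulting immunoproteasome favours peptides that fit major histocompatibility complex (MHC) class I molecules. The core is opened by caps, either the 19S regulator, whose ATPases unfold tagged proteins, or the 11S cap PA28, a ring of Psme1 (PA28α) and Psme2 (PA28β) that needs neither ATP nor ubiquitin.

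By role the 46 genes were 8 alpha subunits, 4 structural beta subunits, 3 constitutive and 3 immune catalytic subunits, the thymic subunit Psmb11, 6 ATPases (Psmc1 to Psmc6) and 11 further subunits of the 19S cap, 3 19S assembly chaperones (Psmd5, Psmd9 and Psmd10), 3 genes of the interferon-induced 11S cap, the nuclear 11S cap Psme3, the alternative cap Psme4 and the inhibitor Psmf1. Psme2b, a single-exon near copy of Psme2, may share reads with it, so its values were taken as uncertain. The last, Psmc3ip, matched by name alone, since it is a meiotic recombination factor and no subunit. Of the 46 genes, 45 had at least 100 UMIs over all cells. The exception was Psmb11, which builds the thymoproteasome of thymic epithelium, with 3 UMIs. The testis alpha subunit Psma8 had 169 UMIs, against 34794 for Psma6.

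Of the immune subunits, Psmb9 and Psmb8 lie close to other genes of antigen presentation. Psmb9 (chromosome 17, 34181987 to 34187764, minus strand, GRCm38) and Psmb8 (chromosome 17, 34197721 to 34201454, plus strand) are in the MHC region, whereas Psmb10 is on chromosome 8 (105935735 to 105938444). Psme1 (55578123 to 55581529) and Psme2 (55587441 to 55591113) are neighbours on chromosome 14 and point towards each other. The gene span of Psmb9, which takes in all its transcripts, runs past the Tap1 start at 34187556. The RefSeq transcript starts of Psmb9 and of Tap1, a subunit of the transporter that carries peptides to MHC class I, lie on opposite strands and 226 bases apart. Promoters were taken from RefSeq (GRCm38.p6), which gave a window for 39 of the 46 genes. The bases before the start of Psmb9 are shown because the capitals, from the first base of Tap1 to the last base before Psmb9, lie between these 2 RefSeq starts (chr17:34187331-34187580, minus strand).
Psmb9: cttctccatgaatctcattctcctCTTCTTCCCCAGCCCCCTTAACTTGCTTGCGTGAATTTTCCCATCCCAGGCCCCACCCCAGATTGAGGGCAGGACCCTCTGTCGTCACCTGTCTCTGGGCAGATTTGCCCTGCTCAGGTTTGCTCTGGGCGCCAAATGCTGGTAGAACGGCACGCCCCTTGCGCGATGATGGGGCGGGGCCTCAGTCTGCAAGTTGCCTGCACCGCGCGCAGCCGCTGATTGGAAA
For comparison of an immune and 2 constitutive subunits, the bases before the RefSeq starts of Psmb8 (chr17:34197945-34198194, plus strand), Psmb5 (chr14:54617996-54618245, minus strand) and Psmb6 (chr11:70525107-70525356, plus strand) are given with matches to a motif in capitals. The window of Psmb8 lies inside its gene span, which begins at 34197721, before the RefSeq start used at 34198195.
Psmb8: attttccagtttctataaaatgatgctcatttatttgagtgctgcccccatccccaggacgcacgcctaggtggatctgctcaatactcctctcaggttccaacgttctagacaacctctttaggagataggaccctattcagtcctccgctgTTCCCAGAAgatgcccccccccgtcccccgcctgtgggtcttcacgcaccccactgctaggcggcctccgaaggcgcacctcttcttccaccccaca
Psmb5: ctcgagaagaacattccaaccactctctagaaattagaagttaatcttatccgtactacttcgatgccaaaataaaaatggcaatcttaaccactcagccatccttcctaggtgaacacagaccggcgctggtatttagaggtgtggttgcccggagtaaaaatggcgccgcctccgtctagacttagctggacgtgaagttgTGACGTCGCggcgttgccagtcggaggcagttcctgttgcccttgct
Psmb6: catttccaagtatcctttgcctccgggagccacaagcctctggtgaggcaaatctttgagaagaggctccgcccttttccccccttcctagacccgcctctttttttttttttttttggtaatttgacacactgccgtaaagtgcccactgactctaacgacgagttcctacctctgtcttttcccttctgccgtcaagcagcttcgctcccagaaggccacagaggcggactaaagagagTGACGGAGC

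From 250 bases before to 50 bases after each start, 3 motifs were searched on both strands. The motif TTCNNNGAA, bound by STAT dimers, is its own reverse complement, and it was present at bases -97 to -89 from the start of Psmb8 and near the start of the 19S subunit Psmd2, that is in 2 of 39 members and in 8.3% of 32851 promoters. The motif GAAANNGAAA, bound by interferon regulatory factors, occurred in 4 of 39 members and in 3.44% of promoters, at bases 9 to 18 after the start of Psme1 on the minus strand (TTTCGCTTTC) and in Psmd4, Psmd9 and Psmb3. The motif TGACNNNGC, bound by CNC-bZIP factors, which drive proteasome genes when the proteasome is blocked, occurred in 6 of 39 members and in 12.4% of promoters. It was present at bases -47 to -39 of Psmb5 and -9 to -1 of Psmb6, and in Psmd9, Psme4, Psmd12 and Psmc6. These matches are letters in a window and no sites of binding.

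The authors' 16 clusters were named from markers. Clusters 0, 3 and 6 were neutrophil-like, 1 and 5 monocyte/macrophage-like, 2 T cell-like, 4 B cell-like, 7 dendritic cell-like, 9 NK-like and 10 microglia-like. In cluster 0, however, none of the 10 leading genes was a marker. Cluster 8 stayed unnamed. None of its 10 leading genes, which included C1qa and Crybb1, was on the list of microglial markers used, although that list fitted it best. Its summed monocyte/macrophage markers were at 760 CPM (UMIs scaled to a common total for all libraries) in Young day 6 and at 7830 CPM in Young day 10. Its summed neutrophil markers were at 3640 to 10400 CPM over the libraries. Clusters 11 to 15 held markers of more than 1 lineage or of dividing cells and were also left unnamed. All differences between clusters are descriptions without a test, as the clusters were made from the same genes and the cells of a library share their source. For each cluster, the UMIs of a library were summed over its cells and divided by their total. The UMIs tag the 3′ end and do not scale with length, but capture can differ between genes. The immune share, that is the UMIs of Psmb8, Psmb9 and Psmb10 in percent of those of all 6 catalytic subunits, was therefore read for its movement between clusters and libraries and not as a share of protein.

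The immune share was highest in neutrophil-like cluster 0 and lowest in unnamed cluster 12, whose leading genes (Fcnb, Camp, Ms4a3, Elane) are known from neutrophil precursors. It was 93.6% in Young day 6, 86.1% in Young day 10, 94.4% in Middle-aged day 6 and 86.8% in Middle-aged day 10 in cluster 0. In cluster 12 it was 48.1%, 53.8%, 60.0% and 48.4% in the same order of libraries. Cluster 12 held 160 cells, and 131 of them came from Young day 10, so that the exact 95% interval of the share was 36.7% to 59.6% in Young day 6 and 51.2% to 56.4% in Young day 10. All intervals of shares and ratios here cover counting error only. The ranges of both clusters did not overlap.

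Between these extremes the order was shallow. Means over the 4 libraries were 83.2% in dendritic cell-like cluster 7, 79.3% ± 5.4 (SD, n = 4 libraries) in monocyte/macrophage-like cluster 1, 76.9% in B cell-like cluster 4, 76.5% in cluster 5, 75.8% ± 2.2 in T cell-like cluster 2, 73.7% ± 0.57 in cluster 8, 72.5% in NK-like cluster 9 and 72.2% ± 2.7 in microglia-like cluster 10. The neutrophil-like clusters 3 and 6 also lay in this range. Their means were 78.4% (66.6% to 88.1% over libraries) and 74.0% (62.7% to 78.9%). Cluster 7 was above cluster 1 in 3 of 4 libraries, cluster 8 above cluster 9 in 3 of 4 and cluster 9 above cluster 10 in 2 of 4. The order within each of these pairs thus changed between libraries, whereas cluster 0 was above unnamed cluster 13, next in the order with a mean of 83.4%, in 4 of 4. The spread over libraries takes in both days and both ages. On day 10 the share was 82.3% at both ages in cluster 7, against 75.0% in young and 74.5% in middle-aged mice in cluster 1. On day 6 it was 83.1% against 84.9% in young and 85.2% against 82.9% in middle-aged mice.

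**Figure D1:**
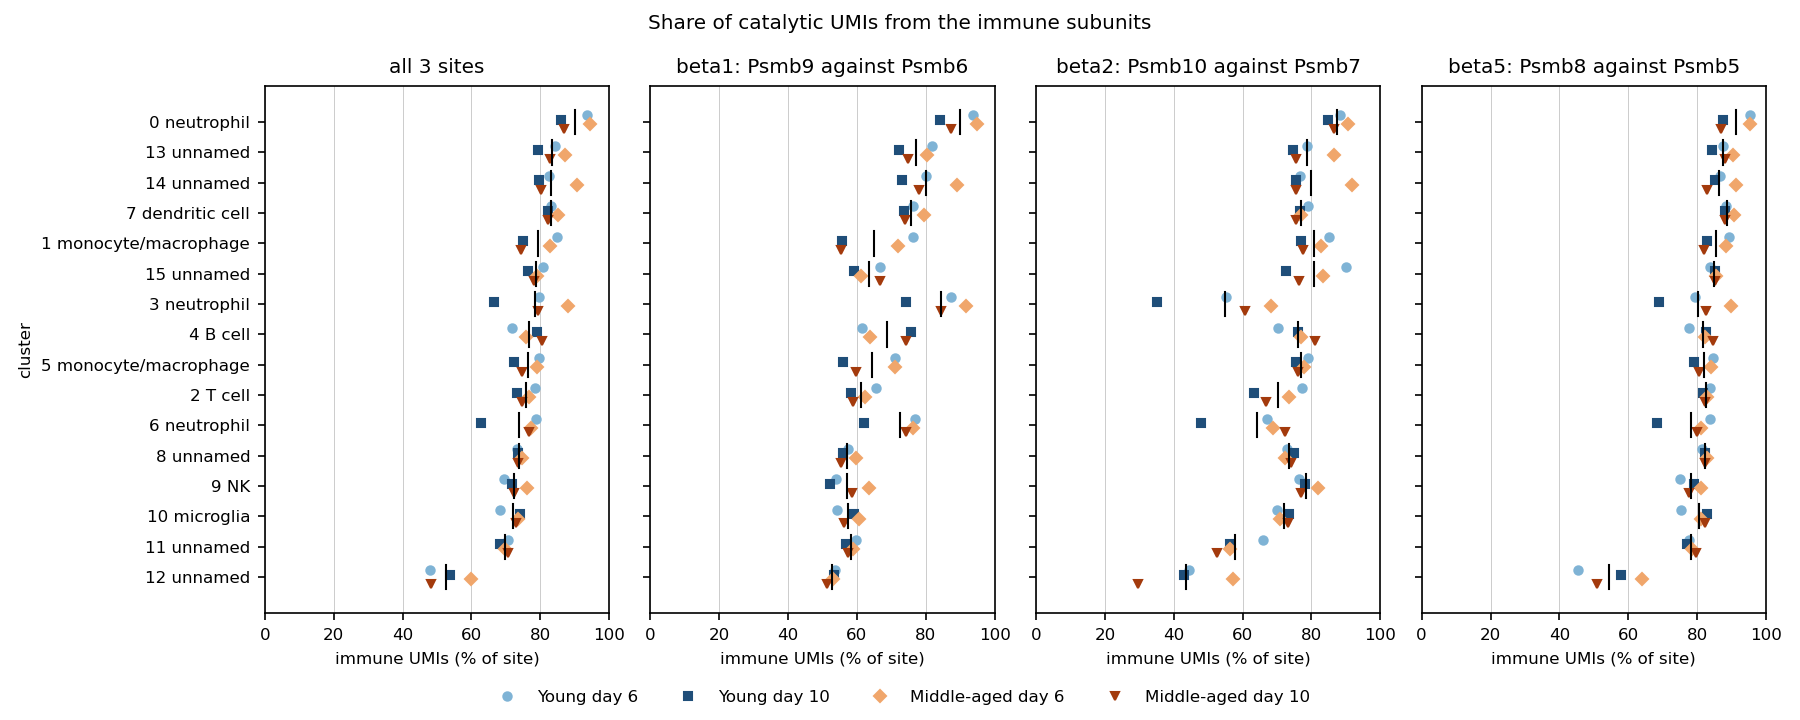
Share of catalytic UMIs from the immune subunits in percent (x axes), for all sites and for β1, β2 and β5, in 16 clusters (y axis) and 4 libraries (symbols), with the mean over libraries as a bar. Cluster 0 has a mean of 90.2% and cluster 12 of 52.6%, and in cluster 3 the β2 share is the lowest of the 3 sites in each of 4 libraries.

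The 3 sites did not move as one. At β5 the immune share was above that of the other sites in each of 4 libraries in clusters 1, 2, 4, 5, 6, 7 and 10 and in unnamed clusters 8, 11 and 13, with a mean of 80.4% in microglia-like cluster 10 and 85.6% in cluster 1. At β1 it was lower in most clusters of lymphoid and mononuclear cells, with 57.5% in cluster 10, 61.2% in cluster 2 and 64.8% in cluster 1. In neutrophil-like clusters 3 and 6 the lowest site was β2 in each of 4 libraries. Its means were 54.8% and 64%, against 84.4% and 72.4% at β1. The β2 shares rested on 29 to 128 UMIs per library in cluster 3 and on 48 to 424 in cluster 6. In cluster 3 the counting intervals of β1 and β2 were apart in each library. In cluster 6 they were apart only in Young day 10 (58.7% to 65.2% and 43.0% to 52.8%). In the other libraries of cluster 6 they overlapped, so the order of these sites was not resolved there. Psmb10, the immune β2 subunit, was low in both clusters. In cluster 3 it was at 29.0 CPM in Young day 6, 20.9 in Young day 10, 50.7 in Middle-aged day 6 and 72.1 in Middle-aged day 10, whereas in neutrophil-like cluster 0 it was at 357, 378, 426 and 356 CPM. The values of both clusters did not overlap, and Psmb10 had the widest range of the catalytic subunits over the named clusters, with 3.82 on the log2 scale.

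Psmb8, the immune β5 subunit, was the most abundant catalytic subunit in UMIs, with 271342 in all, and 90.1% of cells had at least 1. Among the named clusters its level was highest in dendritic cell-like cluster 7, at 1600 CPM in Young day 6, 1580 in Young day 10, 2150 in Middle-aged day 6 and 1480 in Middle-aged day 10. It was at 216, 155, 304 and 290 CPM in neutrophil-like cluster 3 and at 330, 179, 286 and 307 CPM in neutrophil-like cluster 6. Cluster 3 was the lowest named cluster in 3 of 4 libraries and cluster 6 in Middle-aged day 6. Psmb9, the immune β1 subunit, was highest in cluster 7 in 3 of 4 libraries, with 765 CPM over all libraries, while in Middle-aged day 10 cluster 0 was at 590 and cluster 7 at 576 CPM. It was lowest in cluster 6 in 3 of 4, with 132 CPM over all libraries, while in Young day 6 cluster 3 was at 149 and cluster 6 at 177 CPM. Psmb5 and Psmb6 were lower in neutrophil-like clusters 3 and 6 than in the named clusters of other cells in each of 4 libraries, and in cluster 0 this held on day 6. Psmb5 was at 53.9, 175, 66.4 and 182 CPM in cluster 0, in the order Young day 6, Young day 10, Middle-aged day 6 and Middle-aged day 10, and at 210, 213, 223 and 200 CPM in cluster 7. Psmb6 was at 44.1, 113, 39.8 and 86.5 CPM in cluster 0 and at 241, 225, 262 and 205 CPM in cluster 7. On day 10 Psmb5 in cluster 0 lay above that in clusters 2, 4, 9 and 10, with 160 and 146 CPM in cluster 10. The immune subunits summed to 2247 ± 186 CPM in cluster 0 and to 2277 ± 652 CPM in cluster 1, and the constitutive ones to 244 ± 112 and 563 ± 66.3 CPM (SD, n = 4 libraries).

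**Figure D2:**
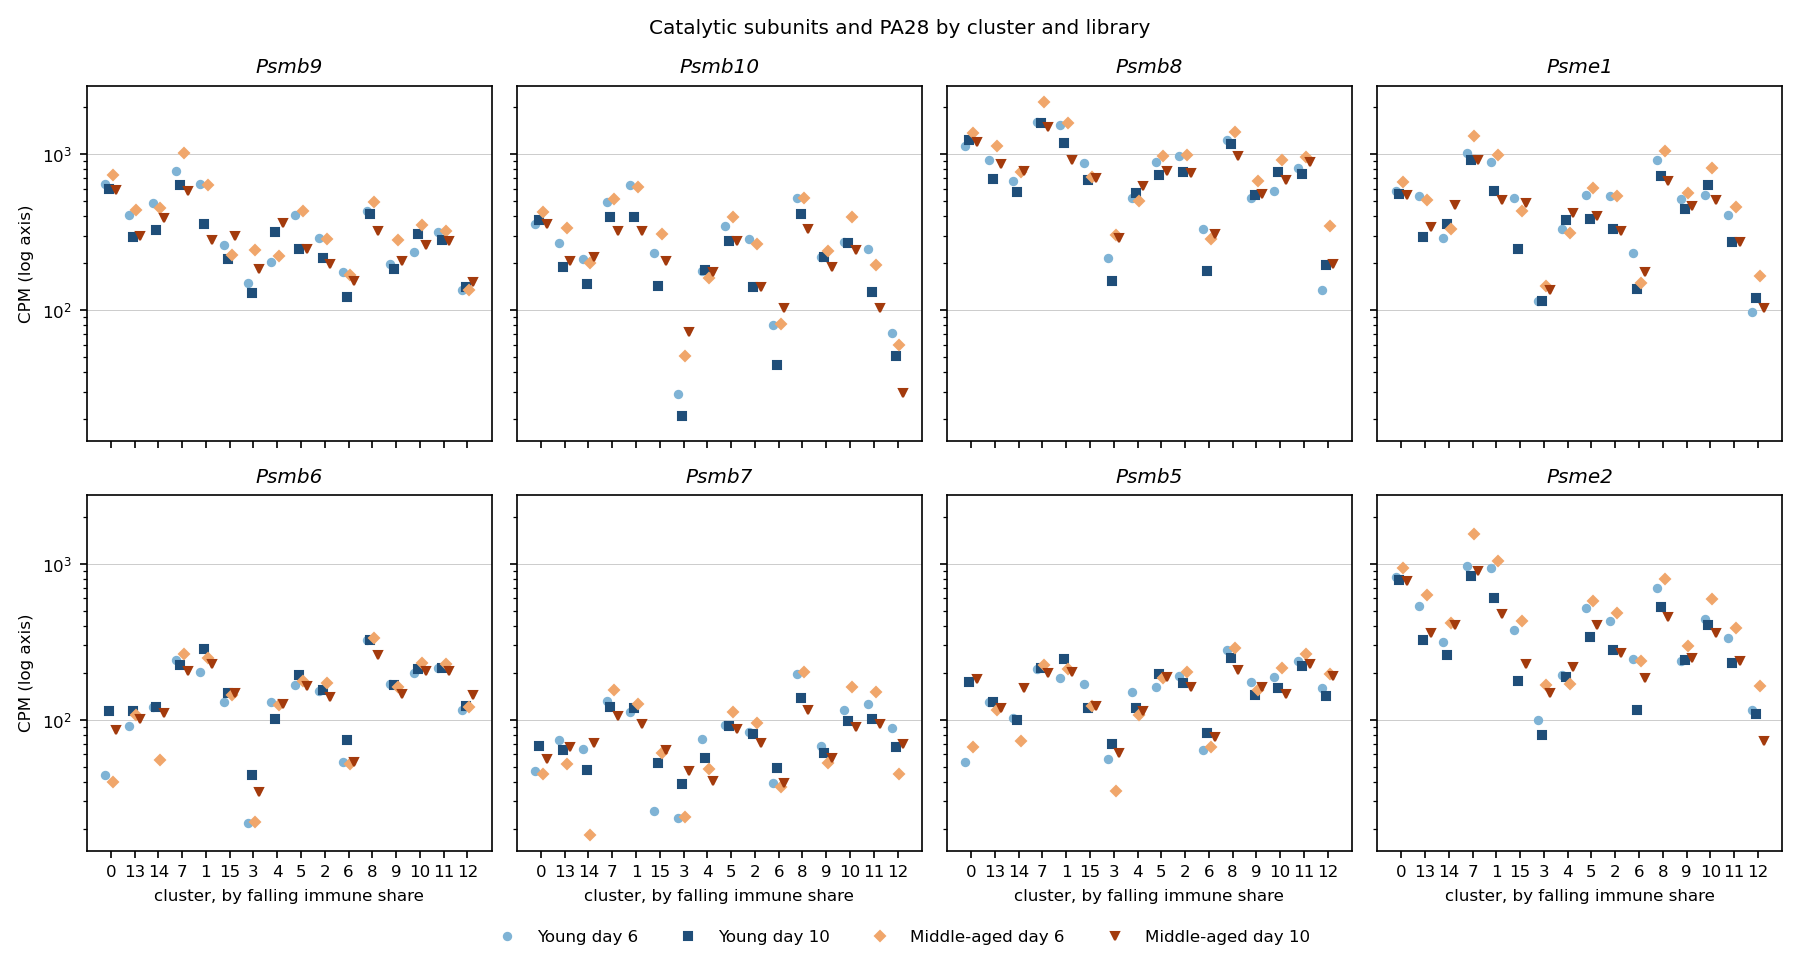
CPM (log axis) of the 6 catalytic subunits and of Psme1 and Psme2 in 16 clusters, ordered by falling immune share, with 1 symbol per library. Psmb10 in cluster 3 lies at 20.9 to 72.1 CPM, and Psmb5 in cluster 0 at 53.9 and 66.4 CPM on day 6 and at 175 and 182 CPM on day 10.

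The 11S cap moved with the immune subunits and the 19S cap with the core. Over the 16 clusters the summed log2 CPM of Psme1 and Psme2 and of the immune subunits had a Pearson correlation of 0.975, whereas that of the immune and the constitutive subunits was 0.643. The 20 genes of the 19S cap and its chaperones and the 14 core subunits without the immune ones had a correlation of 0.970. The points share libraries and totals, and sums of many genes vary less than single genes, so these are descriptions. The ratio of 19S to core UMIs stayed between 0.448 in monocyte/macrophage-like cluster 5 and 0.646 in cluster 12, with 0.631 in microglia-like cluster 10. That of PA28 to core UMIs went from 0.120 in cluster 12 to 0.976 in neutrophil-like cluster 0, and that of immune to constitutive UMIs from 1.13 to 10.2 in the same clusters. In cluster 0 the summed PA28 level was 1405 CPM in Young day 6, 1337 in Young day 10, 1600 in Middle-aged day 6 and 1322 in Middle-aged day 10, while the summed 19S level was 489, 1173, 507 and 1105 CPM. PA28 was therefore above 19S in each library of this cluster, and below it in each library of microglia-like cluster 10, at 986, 1037, 1407 and 864 CPM against 2243, 1580, 2186 and 1519 CPM. In dendritic cell-like cluster 7 PA28 was also above 19S in each library, at 1986, 1743, 2832 and 1816 CPM against 1798, 1720, 2032 and 1615 CPM. In cluster 1 PA28 was above 19S on day 6 and below it on day 10 at both ages.

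**Figure D3:**
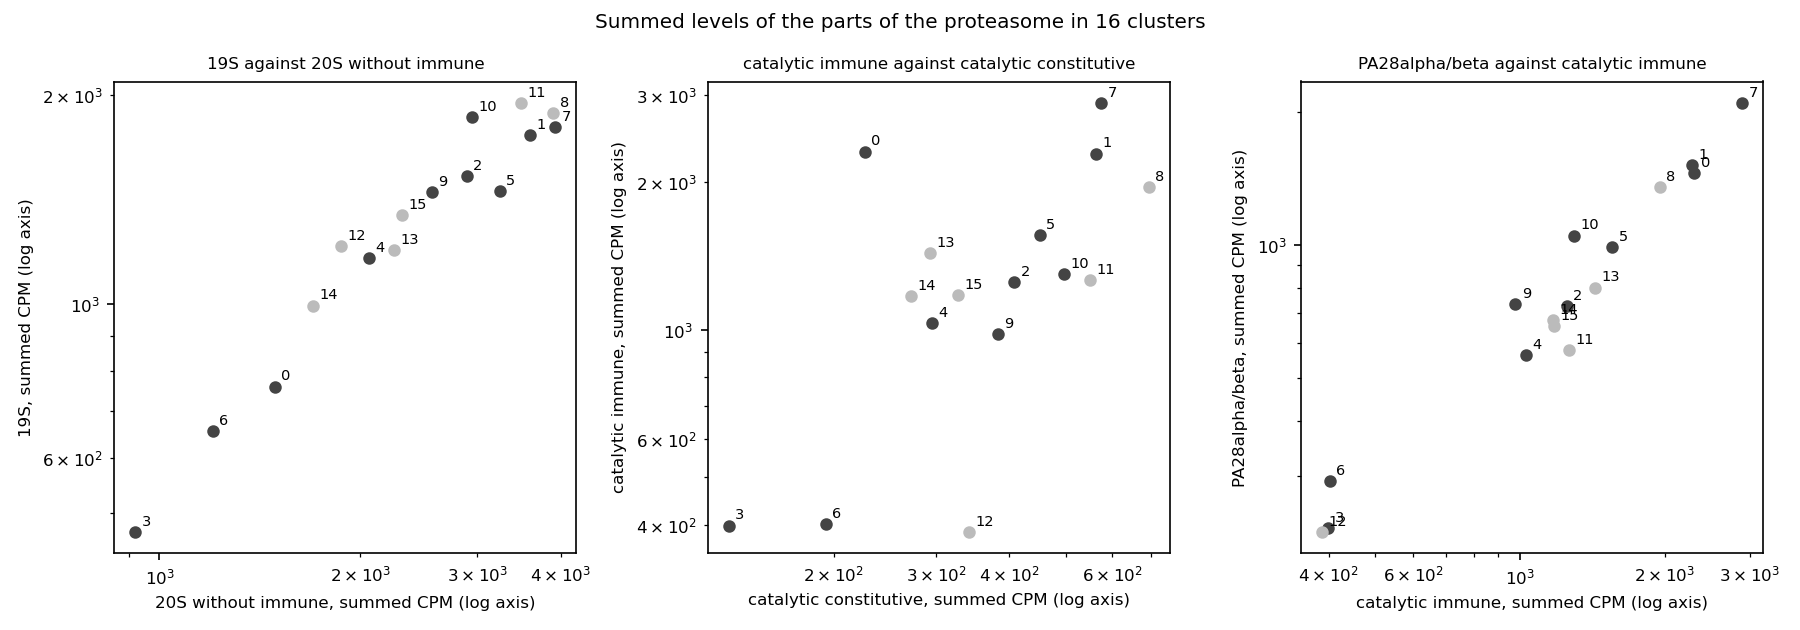
Summed CPM (log axes) in 16 clusters, numbered, for the 19S cap against the 20S core without immune subunits, for the immune against the constitutive catalytic subunits, and for PA28 against the immune catalytic subunits, with unnamed clusters in light grey. The left and right pairs lie along a line (r = 0.970 and 0.975), and in the middle panel cluster 0 lies far above the others with a ratio of 10.2.

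Members of 1 role did not all have the same range. Over the named clusters, with all libraries pooled, the log2 range had a median of 2.29 in the 45 members and of 2.54 in 13110 genes with at least 100 UMIs. In the 19S cap the widest was Psmd7, with 13.6 CPM in cluster 3 and 177 CPM in microglia-like cluster 10, and the narrowest was the ubiquitin receptor Psmd4, with 67.1 CPM in cluster 6 and 160 CPM in cluster 2. Among the ATPases Psmc5 had a log2 range of 2.75 and Psmc6 of 1.75. Among the alpha subunits it was 3.11 for Psma4 and also for Psma5, and 1.60 for Psma6, and among structural beta subunits 2.29 for Psmb1 and 1.72 for Psmb3. Unlike the catalytic subunits, Psmb1 was highest in T cell-like cluster 2, at 429 CPM, and was at 94.4 CPM in cluster 0. The chaperones Psmd9 and Psmd10 had log2 ranges of 1.93 and 1.12, the inhibitor Psmf1 of 2.37 and the nuclear cap Psme3 of 1.42. The narrowest of all was Psme4, the cap known for acetylated histones, with 0.949, between 25.9 and 50.9 CPM. Psme2b stood out in cluster 0 with 89.6 CPM against 10.5 to 30.6 CPM in clusters 1 to 10.

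Outside the proteasome the genes whose levels over the 16 clusters were most like the mean of the immune subunits were, of 5106 ranked, Ifi35 (Pearson r = 0.940), Bst2 (0.924), Bax (0.917), Wars (0.917) and Atp6v1f (0.907). Bst2, or tetherin, holds budding viruses at the cell surface and Wars is the tryptophan tRNA synthetase. Psme1 and Psme2 had 0.963 and 0.965 by the same measure, and Psmb5, Psmb6 and Psmb7 had 0.609 to 0.641.

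The immune share was lower on day 10 than on day 6 at both ages in neutrophil-like clusters 0 and 3, in clusters 1 and 5 and, by less, in T cell-like cluster 2. This comparison asks how the cells differed between the earlier and the later day, with the ages as the only repeat. In monocyte/macrophage-like cluster 1 it was 84.9% in Young day 6 and 75.0% in Young day 10, and 82.9% in Middle-aged day 6 and 74.5% in Middle-aged day 10. The difference was largest at β1, where the share went from 76.2% to 55.7% in young and from 71.9% to 55.4% in middle-aged mice. Cluster 5, also monocyte/macrophage-like, went from 79.6% to 72.4% and from 79.2% to 74.7%. B cell-like cluster 4 went the other way, from 71.8% to 79.2% and from 75.9% to 80.6%. In dendritic cell-like cluster 7 the share was 83.1% and 82.3% in young and 85.2% and 82.3% in middle-aged mice. In neutrophil-like cluster 6 it was 78.9% and 62.7% in young and 77.4% and 76.8% in middle-aged mice. Like clusters 6 and 7, unnamed clusters 13, 14 and 15 had a lower share on day 10 at both ages.

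In cluster 1 all 3 immune subunits and all 3 genes of the interferon-induced 11S cap were lower on day 10 than on day 6 in the fit over the 4 libraries, whereas the 3 constitutive catalytic subunits did not pass the test. Psmb9 was at 643 CPM in Young day 6, 356 in Young day 10, 634 in Middle-aged day 6 and 283 in Middle-aged day 10. Both day 10 values lay below both day 6 values, and the log2 change was -1.18 ± 0.21 (SE, edgeR quasi-likelihood test, adjusted p = 0.00113). Psmb10 was at 636, 398, 617 and 324 CPM in the same order, with a log2 change of -0.97 ± 0.21 (adjusted p = 0.00372). Psmb8 was at 1530, 1180, 1590 and 920 CPM, with -0.75 ± 0.22 (adjusted p = 0.019). The PA28 genes were as much lower. Psme1 was at 896, 583, 983 and 509 CPM, with -0.95 ± 0.21 (adjusted p = 0.0045), and Psme2 was at 942, 601, 1040 and 478 CPM, with -1.05 ± 0.22 (adjusted p = 0.00302). Against this, Psmb5 was at 185, 245, 211 and 201 CPM, with 0.00088 ± 0.21 (adjusted p = 0.998), and Psmb6 was at 201, 283, 248 and 228 CPM, with 0.018 ± 0.22 (adjusted p = 0.961). Psmb7 had -0.35 ± 0.21 (adjusted p = 0.226).

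Of the 45 members tested in cluster 1, 10 were lower on day 10 and 0 higher, beside 29.9% of all 12222 genes called for day, 1802 up and 1852 down. The share of members called was thus not above that of all genes. Psme2b had the largest change (-1.44 ± 0.19, adjusted p = 8.53e-05). The others were the alpha subunits Psma7 (-0.76), Psma5 (-0.66) and Psma4 (-0.61), and Psme4 (-0.51), with adjusted p-values of 0.0152, 0.0367, 0.0432 and 0.0485 in the same test. None of the 20 genes of the 19S cap and its chaperones passed, although their medians were below 0 in the ATPases (-0.31) and the other subunits (-0.25). With day fitted alone, the median log2 change of the members was -0.42 without Young day 6 and -0.39 without Young day 10. It was -0.14 without Middle-aged day 6 and -0.17 without Middle-aged day 10. The medians of all genes in these fits were between 0.014 and 0.039. The number called changed with the library left out, in members and in all genes. Among other genes of the pathway, 5 of 12 genes of class I peptide supply (Tapbpl, Nlrc5, Tapbp, Tap1 and Tap2) and 12 of 12 interferon response genes were lower on day 10, the latter with a median log2 change of -2.04. Of 14 assembly and associated genes 2 (Pomp and Psmg1) passed, 1 in each direction. Of 11 heat shock genes 6 were lower on day 10, with a median log2 change of -0.69 over the list. The neutrophil marker sum in cluster 1 was 3960, 5400, 2780 and 1950 CPM in Young day 6, Young day 10, Middle-aged day 6 and Middle-aged day 10, and its part in these changes was not tested. The immune share of single cells pointed the same way as that of sums, with means over cells of 84.9%, 74.8%, 82.6% and 73.7%.

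**Figure D4:**
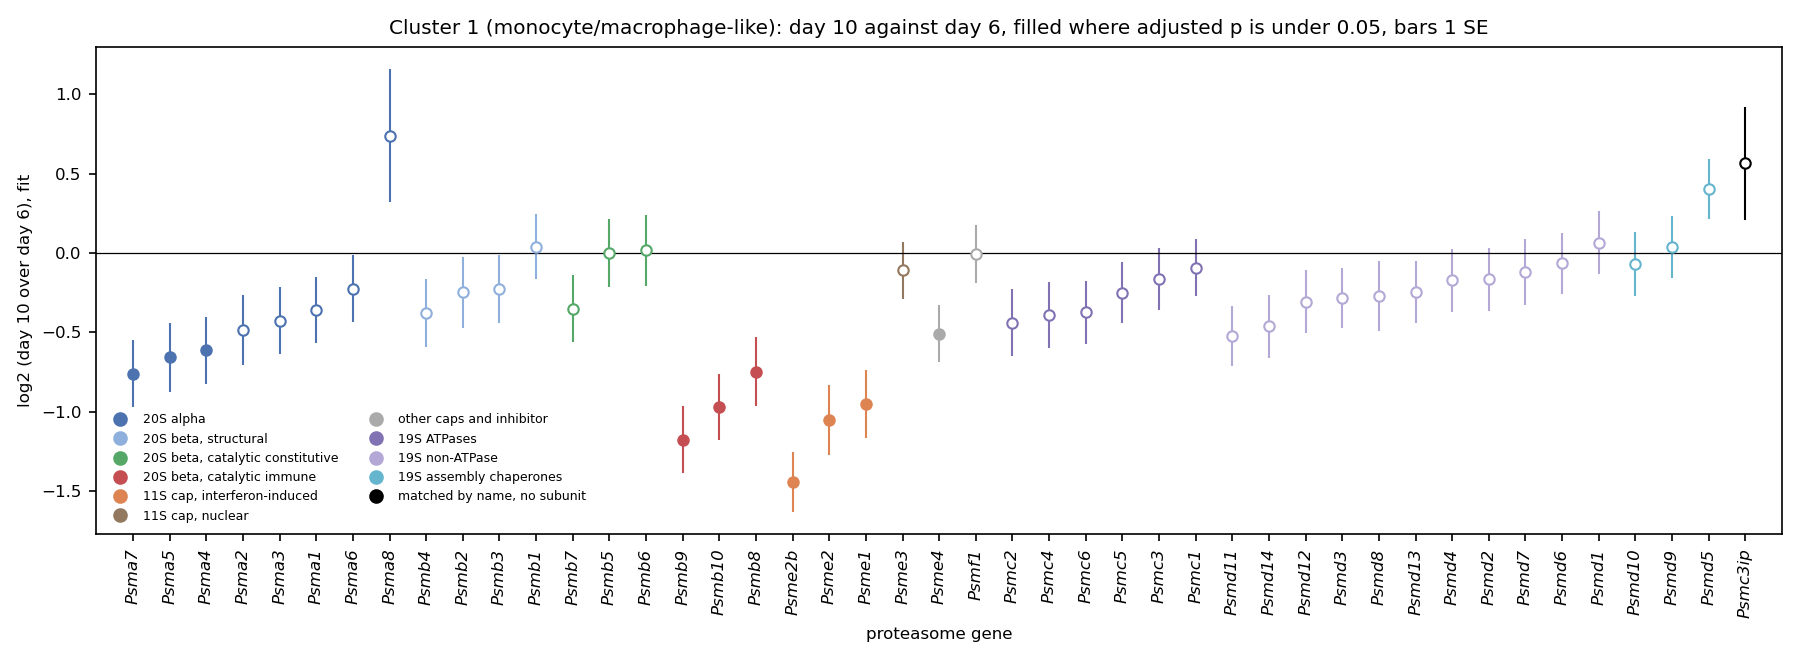
Log2 change from day 6 to day 10 in cluster 1 for 45 members, grouped by role, with 1 SE as bars and filled symbols where the adjusted p is under 0.05. The immune subunits and the interferon-induced 11S genes lie between -0.75 and -1.44, and Psmb5 and Psmb6 lie at 0.00088 and 0.018.

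By direction of the plain CPM ratio, 28 of 44 members with at least 100 UMIs were higher on day 10 in young and 6 of 43 in middle-aged mice, beside 55.3% and 64.6% of all genes in cluster 1. The immune subunits had median log2 ratios of -0.68 in young and -0.93 in middle-aged mice and the constitutive ones of 0.41 and -0.12, while the median of all genes was 0.080 and 0.23. The direction of the constitutive subunits thus differed between the ages, and that of the immune subunits did not.

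In T cell-like cluster 2, 2 of 44 members were lower on day 10 and 0 higher, beside 7.22% of 11362 genes called. They were Psmb10 (-0.86 ± 0.19, adjusted p = 0.00615, edgeR), at 284 CPM in Young day 6, 140 in Young day 10, 266 in Middle-aged day 6 and 141 in Middle-aged day 10, and Psme2b (-0.87 ± 0.22, adjusted p = 0.0174). Both day 10 values of Psmb10 were below both day 6 values. Psme1 and Psme2 had -0.61 and -0.62 and missed the threshold (adjusted p = 0.0688 and 0.0695). With day fitted alone, the median log2 change of the members was -0.28 without Young day 6 and -0.21 without Young day 10. It was -0.024 without Middle-aged day 6 and -0.041 without Middle-aged day 10. The medians of all genes in these fits were between -0.0073 and 0.013. The number called changed with the library left out, in members and in all genes. Of the same lists, 4 of 12 genes of class I peptide supply and 10 of 12 interferon response genes were lower on day 10.

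In unnamed cluster 8 and in microglia-like cluster 10, 1 of 44 members was called for day, beside 13.4% of 8371 and 6.64% of 10562 genes. In both it was Psmc3ip, which is no proteasome subunit, with -1.90 ± 0.35 (adjusted p = 0.000743) and -1.43 ± 0.35 (adjusted p = 0.0272, edgeR). In cluster 10 Psmc3ip was at 14.3 CPM in Young day 6, 4.55 in Young day 10, 15.9 in Middle-aged day 6 and 5.56 in Middle-aged day 10, and the summed dividing-cell markers were at 540, 426, 885 and 336 CPM. Its part in the change was not tested. With day fitted alone, the median log2 change of the members without Young day 6 was -0.22 in cluster 8 and -0.44 in cluster 10. It was -0.23 and -0.15 without Middle-aged day 6, -0.31 and -0.38 without Young day 10 and -0.11 and -0.28 without Middle-aged day 10. The medians of all genes in these fits were between -0.023 and 0.030. The number called changed with the library left out, in members and in all genes. DESeq2 called no member in either cluster, with 1 at an unadjusted p under 0.05 in each. Of 12 interferon response genes, 10 in cluster 8 and 4 in cluster 10 were lower on day 10. The median log2 changes of that list were -1.31 and -0.85. Those of the immune subunits, none of which was called, were -0.067 and 0.12.

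In neutrophil-like cluster 0, which was not fitted, the constitutive subunits were higher on day 10. The immune subunits were nearly level in young and lower on day 10 in middle-aged mice. The median log2 ratio of day 10 over day 6 was 1.36 for the constitutive and 0.082 for the immune subunits in young mice, and 1.12 and -0.26 in middle-aged mice. Psmb5 had a log2 ratio of 1.70 (95% interval 1.5 to 1.91) in young and 1.46 (1.31 to 1.60) in middle-aged mice, and Psmb6 of 1.36 and 1.12. All 7 alpha subunits and all 18 (young) or 20 (middle-aged) measurable genes of the 19S cap were higher on day 10. Of all members, 35 of 40 in young and 35 of 42 in middle-aged mice were higher, beside 73.5% and 76.4% of all genes. The median of all genes was itself at 0.58 and 0.68, and the immune subunits lay below this median at both ages. The lower immune share on day 10, which does not depend on the total, was also seen after each cell was thinned to 2000 UMIs, with 93.9% and 86.6% in young and 94.4% and 86.5% in middle-aged mice. Cells with fewer than 2 marker UMIs of each other lineage were 419 of 1489 in Young day 6 and 237 of 1729 in Young day 10. In middle-aged mice they were 1153 of 3880 on day 6 and 345 of 2159 on day 10. The part of RNA of other lineages in these changes was not tested.

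The question of age was put to each day, since the study compared middle-aged with young recipients. In the fits over both days, no member was called for age in clusters 1, 2, 8 and 10 (0 of 45, 44, 44 and 44), beside 0.0982%, 0.0616%, 0.0956% and 0.142% of all genes called. At an unadjusted p under 0.05 there was also no member in each of them in edgeR, and DESeq2 called 0 as well. Of the other lists, 2 heat shock genes (Hspa1a and Hspa1b) were lower in middle-aged T cells of cluster 2, and none of the assembly, class I or interferon genes was called.

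In microglia-like cluster 10 the immune subunits were higher in middle-aged than in young mice on day 6 and lower on day 10. Psmb8 was at 577 CPM in Young day 6 and 922 in Middle-aged day 6, a log2 ratio of 0.68 (95% interval 0.59 to 0.77). On day 10 it was at 769 CPM in young and 679 in middle-aged mice, a log2 ratio of -0.18 (-0.26 to -0.097). Psmb9 had 0.58 (0.44 to 0.72) on day 6 and -0.22 (-0.36 to -0.093) on day 10, and Psmb10 had 0.54 (0.40 to 0.67) and -0.15 (-0.29 to -0.011). In the fit over both days these became 0.28 ± 0.30 for Psmb8, 0.21 ± 0.26 for Psmb9 and 0.22 ± 0.25 for Psmb10 (adjusted p = 0.999 each, edgeR). The lowest of the 4 libraries was in each case Young day 6 or, for Psmb10, Middle-aged day 10. The day 6 direction was not particular to cluster 10. Over the 10 named clusters, Psmb8 was higher in middle-aged mice on day 6 in 8 and lower in 2. Psmb9 and Psmb10 were each higher in 7 and lower in 3. In dendritic cell-like cluster 7 Psmb8 had 0.43 (0.38 to 0.47) on day 6 and -0.090 (-0.16 to -0.022) on day 10.

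The parts of the complex were not shifted alike in cluster 10. On day 6 PA28 (Psme1 0.58, Psme2 0.43) was higher with the immune subunits (median 0.58) in middle-aged mice, the constitutive subunits were at a median of 0.20, all 7 alpha and all 4 structural beta subunits were higher with medians of 0.23 and 0.29, and of the 20 genes of the 19S cap and its chaperones 10 were higher and 10 lower (median -0.0041). Together 33 of 43 members were higher, beside 45.1% of all genes. On day 10 all 7 alpha, 4 structural beta and 6 catalytic subunits were lower in middle-aged mice, with medians of -0.17, -0.18, -0.13 (constitutive) and -0.18 (immune), and 8 of 43 members were higher, beside 49.3% of all genes. The medians of all genes were -0.043 and -0.0038. The immune share was 68.2% in Young day 6 (67.0% to 69.5%) and 73.4% in Middle-aged day 6 (72.2% to 74.6%), and 74.1% and 72.9% on day 10, so that Young day 6 stood apart from the other 3 libraries. After thinning to 2000 UMIs per cell it was 66.7% there and 72.3% to 73.2% in the others. In that library 66% of the 432 cells had a UMI of Psmb9 against 84.3% to 91.2% in the others, with medians of 6931 UMIs per cell against 8394 to 10000. The summed heat shock genes were at 20200 CPM there and at 5590 to 9040 CPM in the others, and all 11 were lower in middle-aged mice on day 6, with a median log2 ratio of -1.27. The summed neutrophil markers were at 4530 CPM in Young day 6, 5960 in Young day 10, 1320 in Middle-aged day 6 and 3710 in Middle-aged day 10. The summed microglial markers were at 4350 CPM in Young day 6, 2270 in Young day 10, 2690 in Middle-aged day 6 and 2330 in Middle-aged day 10. Like the heat shock genes, they were highest in Young day 6. The part of heat shock RNA and of the make-up of the cluster in the result was not tested. With cells of 5 or more neutrophil marker UMIs left out, an alternative added after the data were seen, the median of the immune subunits was 0.55 on day 6. The day 10 median of -0.18 was -0.037 after thinning and -0.0098 without cells with UMIs of other lineages, which left 32 of 362 cells of Young day 10.

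**Figure D5:**
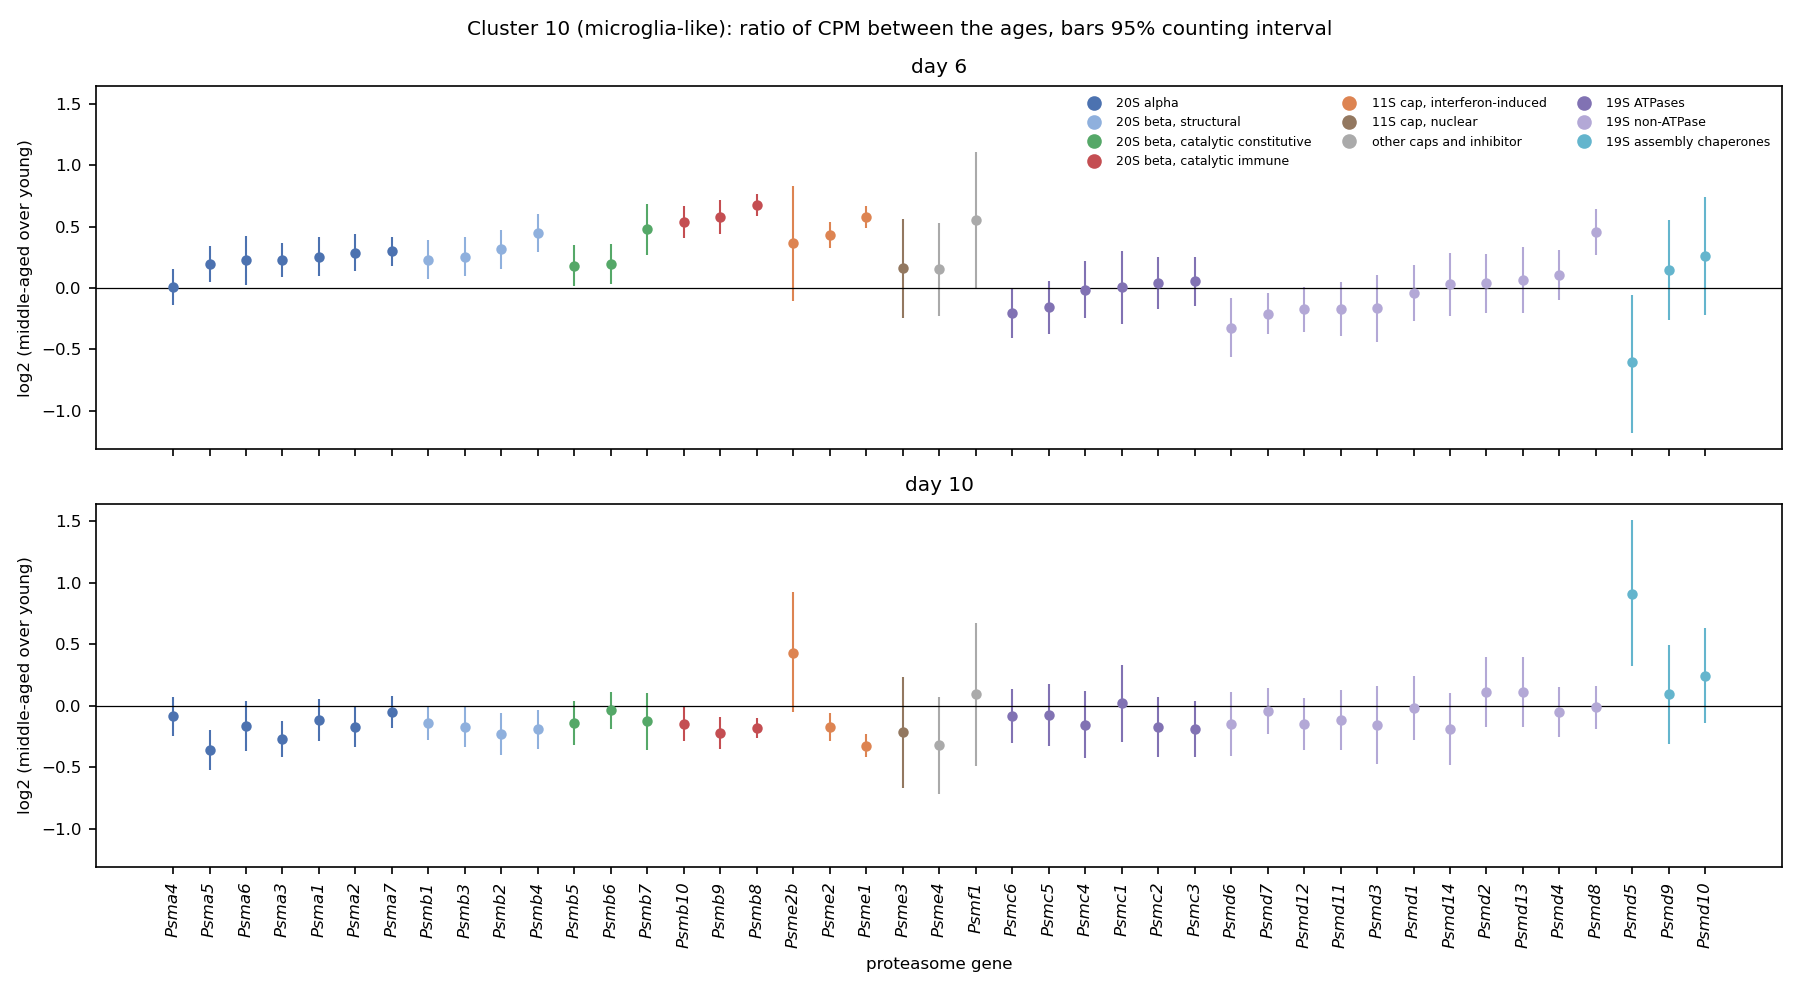
Age ratio (log2 of CPM, middle-aged against young) in microglia-like cluster 10 on day 6 (upper panel) and day 10 (lower panel) for members with at least 100 UMIs, grouped by role, with 95% counting intervals as bars. The immune subunits lie at 0.54 to 0.68 on day 6 and at -0.22 to -0.15 on day 10, while the 19S genes lie around 0 on day 6.

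In clusters 1, 2 and 8 the immune share of middle-aged minus that of young mice was between -2.02 and 1.37 percentage points on either day. In cluster 1 the immune subunits had a median log2 ratio of -0.022 on day 6, which was 0.10 with TMM factors, and of -0.33 on day 10. The constitutive ones had 0.19 and -0.31, beside medians of all genes of -0.13 and 0.011. In T cell-like cluster 2 the immune subunits had -0.028 on day 6, which turned to 0.13 after thinning, 0.054 with TMM factors and 0.047 without cells with UMIs of other lineages. On day 10 they had -0.014, or -0.11 after thinning. The constitutive ones had 0.18 on day 6 and -0.15 on day 10. In cluster 8 the immune subunits had 0.17 and -0.31 and the share was between 73.3% and 74.6% in all libraries. The largest difference of share between the ages on 1 day was in neutrophil-like cluster 6, with 62.7% in Young day 10 (60.7% to 64.6%) and 76.8% in Middle-aged day 10 (73.0% to 80.4%), 14.2 percentage points. Neutrophil-like cluster 3 had 66.6% (63.6% to 69.6%) and 79.3% (74.9% to 83.3%) on the same day. In both clusters Young day 10 was the lowest library, and it also held 515 of the 701 cells of cluster 6 and 131 of the 160 cells of cluster 12. Whether the make-up of the clusters differed between the libraries was not tested. On day 6 the share in cluster 6 was 78.9% and 77.4% in young and middle-aged mice.

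In bulk microglia of naive mice the core subunits were slightly lower in the middle-aged library and the immune subunits were close to level. In bulk RNA, fewer cells of a type and less RNA per cell cannot be told apart. With 1 library per age there was no test. All 3 constitutive catalytic subunits (median log2 ratio -0.16), all 7 alpha subunits (-0.12) and all 4 structural beta subunits (-0.12) were lower in middle-aged mice, as were 15 of 20 genes of the 19S cap and its chaperones (-0.057). Of 45 members with at least 100 counts 11 were higher, beside 48.3% of all 14821 genes, whose median was -0.0072. Psmb6 had 4244 counts in the young and 3575 in the middle-aged library (log2 ratio -0.19, 95% interval -0.26 to -0.13) and Psmb5 had 1625 and 1396 (-0.16, -0.27 to -0.058). Of the immune subunits, Psmb8 had 2626 and 2434 counts (-0.052, -0.13 to 0.028), Psmb9 had 2870 and 2597 (-0.087, -0.16 to -0.010) and Psmb10 had 4510 and 4432 (0.032, -0.028 to 0.092). Psme1 and Psme2 had log2 ratios of -0.045 and 0.082, and Psmd7 had the highest of the members with 0.18. All 11 heat shock genes were higher in the middle-aged library, with a median of 0.54. The endothelial genes Cldn5 and Pecam1 had log2 ratios of -2.47 and -1.15, and the part of vascular RNA in these small ratios was not tested.

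Per kilobase of exon, the immune subunits made up 47.6% of catalytic reads in young and 50.5% in middle-aged naive microglia. The sites differed more than the ages, with 25.7% and 27.1% at β1, 82.9% and 84.2% at β2 and 30.1% and 31.7% at β5. These shares depend on the exon lengths, which were 3.66 kb for Psmb9, 1.87 kb for Psmb6, 3.38 kb for Psmb8 and 0.899 kb for Psmb5. With reads not divided by length, an alternative added after the data were seen, they were 56.4% and 58.8% for all sites, 40.3% and 42.1% at β1, 70.7% and 72.7% at β2 and 61.8% and 63.6% at β5. On both scales β2 was the highest site, β1 the lowest, and each share was higher in the middle-aged library. In the EAE libraries microglia-like cluster 10 had 54.1% to 60.6% at β1, 70.1% to 73.4% at β2 and 75.4% to 82.8% at β5, so that β5 was the site with the highest share there and β2 in the naive bulk libraries. Full-length reads per kilobase and 3′ UMIs are different measures, and the method and the disease cannot be told apart in this pair.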

How the data were processed

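Single-cell RNA was measured in 4 libraries of CD45+ spinal cord cells and bulk RNA in 2 libraries of naive microglia. For the single cells the authors counted UMIs with CellRanger v3.1.0 on mm10, filtered and clustered the cells in Seurat, and deposited raw counts per gene and cell with a cluster number. Sums of the deposited counts matched the deposited totals in all 38057 cells. For the bulk libraries the deposited counts are raw reads per gene from featureCounts, unstranded, on GRCm38. Columns without a matching sample numbered 0. No doublet caller was run, and clusters were not computed again.

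UMIs were summed by cluster and library, and levels are in CPM. Ratios carry exact conditional binomial 95% intervals and shares exact Clopper-Pearson intervals, and ratio summaries used genes whose counts in the compared libraries summed to at least 100. Clusters 1, 2, 8 and 10 were fitted with edgeR 4.0.16 in R 4.3.3 (TMM factors, quasi-likelihood test, day and age as additive terms, 10 or more counts in 2 libraries, Benjamini-Hochberg adjustment at 0.05 over all genes), with 1 residual degree of freedom. With 1 library per age and day, p-values measure only the spread left by an additive model and not that between mice. DESeq2 1.42.0 was an alternative. Others changed the size factors, the filter, the model, the total, the scaling and the depth of cells, left out cells with RNA of other lineages, or left out each library. The fits and intervals were tested on simulated data. In bulk, reads were divided by the union of exons of GENCODE vM21. Log2 levels used a pseudocount of 1 CPM. Catalytic subunits, PA28, the members with the widest and narrowest range in each role, those called, those under 100 UMIs and the 5 other genes most like the immune subunits, among genes with 50 or more CPM in a cluster, are named. The members and lists were chosen with earlier results of these data known. Python 3.11.15 with NumPy 2.4.6, pandas 2.3.3, SciPy 1.17.1 and matplotlib 3.10.9 was used.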

Additional observations from a re-analysis of the deposited data

Results flagged for a closer look

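Age ratios of opposite sign on day 6 and day 10, with every gene's counting interval off 0 on both days, were found for 5 sets. The difference between the days was not tested, as there was 1 library per age and day. In microglia-like cluster 10 the immune subunits had median log2 ratios of middle-aged over young of 0.579 on day 6 and -0.179 on day 10, and PA28 had 0.503 and -0.248. In monocyte/macrophage-like cluster 1 the constitutive catalytic subunits had 0.194 and -0.31, and PA28 had 0.139 and -0.261. In unnamed cluster 8 PA28 had 0.186 and -0.155.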

How the results depend on the processing

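The number of members called for age was 0 in clusters 1, 2, 8 and 10 under every alternative. For day, cluster 2 had 4 called with RLE factors and 4 with day alone instead of 2. Cluster 8 had 3 with RLE factors, 2 without the filter on low counts, 0 with DESeq2 and 4 with day alone instead of 1, and cluster 10 had 0 with DESeq2 instead of 1. Without 1 library in turn, and day fitted alone, the count ran from 1 to 24 in cluster 1, 0 to 8 in cluster 2, 1 to 8 in cluster 8 and 0 to 11 in cluster 10. The members called for day kept their direction under each alternative, and the cause of lost calls was not tested. Over all genes, the calls for day were 3654, 820, 1122 and 701 in clusters 1, 2, 8 and 10 with edgeR and 1916, 379, 244 and 138 with DESeq2, and 1201 in cluster 10 without the filter. These calls also changed when 1 library was left out, which left 1 library on its day. For age they ran over all alternatives from 0 to 12, 0 to 34, 0 to 41 and 0 to 53.

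The mean immune share of clusters 0, 1, 2 and 10 stayed within 1 SD of libraries. In cluster 8, with an SD of 0.57, it went from 73.7% to 73.1% after thinning, 73.1% as a mean over cells and 72.4% without cells with RNA of other lineages or, as an added alternative, of neutrophils. Without 1 library it ran from 88.9% to 91.6% in cluster 0, 77.5% to 80.9% in cluster 1, 74.9% to 76.6% in cluster 2, 73.5% to 73.9% in cluster 8 and 71.5% to 73.5% in cluster 10. Leaving out cells with RNA of other lineages left few cells of Young day 10. They were 237 of 1729 in cluster 0, 98 of 2166 in cluster 1, 154 of 1923 in cluster 2 and 32 of 362 in cluster 10.

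The age ratio of the immune subunits on day 6 in cluster 1 was 0.101 with TMM factors and -0.0564 without cells with neutrophil RNA, and on day 10 -0.505 and -0.441 without cells with RNA of other lineages and of neutrophils. On day 10 these 2 filters left 98 and 645 of 2166 young cells and 666 and 1611 of 2336 middle-aged cells of cluster 1. In cluster 2 the age ratio was 0.128 on day 6 and -0.106 on day 10 after thinning, and -0.0946 on day 10 with TMM factors. In cluster 10 the day 10 value was -0.00977 without cells with RNA of other lineages, which left 32 young cells, and -0.0372 after thinning. The bulk ratios stayed within their intervals, whereas the bulk immune share at β5 went from 30.1% and 31.7% to 61.8% and 63.6% without division by exon length. Leaving out a library leaves no age ratio for its day. No paired analysis was possible because each group has 1 library.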
